A study of Mus musculus with 48 samples.

Results

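Type I interferon-stimulated effector genes are the genes through which a cell that has sensed type I interferon blocks the growth of viruses. The 40 genes described here were chosen by name, from a list made with earlier results of these data known. Its symbols were matched to the Ensembl identifiers of the deposited tables, and all 40 were found among 34183 gene rows. They comprise 4 IFIT genes, 5 genes of the 2'-5'-oligoadenylate synthetase (OAS) family, 13 other antiviral effectors, 5 genes of ISG15 conjugation, 3 genes of signalling and regulation, 5 genes of the PARP and Dtx3l group, 3 genes of the p200 (HIN-200) family and 2 chemokines.

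Their levels were followed in 48 mRNA libraries from neuron-enriched cultures of dissociated dorsal root ganglia (DRG), the ganglia that hold the cell bodies of sensory neurons, from adult wildtype mice. Of the regulators that respond to axon injury, the study knocked 7 down and expressed Atf4, alone or with Cebpg, from transfected mRNA. The knockdown groups were named siStat3, siKlf6, siAtf3, siAtf4, siJun, siRest and siAlyref after the gene targeted, and each received a Dharnacon ON-TARGETplus pool of siRNAs by Dharnafect 2 (spelled as labelled) right after isolation. The mRNA groups received Atf4 mRNA, or Atf4 mRNA with Cebpg mRNA. Their controls were siCONTROL cultures, which received the siRNA of that name, and GFP mRNA cultures, and RNA of all transfected groups was taken at 42 h. A further group, time 0, was untransfected. All transfected cultures, controls included, had thus received foreign RNA, and cells were kept in Neurobasal-A medium with B27. Each of the 12 groups held 4 libraries, numbered 1 to 4 except in siKlf6, where the numbers are 1, 2, 4 and 5. The labels do not say whether replicates came from separate animals or cultures, so the p-values measure the spread between these libraries, which may be technical. With 1 pool for each knockdown, effects through the named gene and effects of the siRNAs elsewhere cannot be told apart.

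Type I interferons bind a receptor made of Ifnar1 and Ifnar2, whose kinases phosphorylate STAT proteins, STAT2 among them. These join with IRF9 into the complex ISGF3, which binds a DNA motif, the interferon-stimulated response element, before the genes described here. Their products bind or cut viral RNA, block viral entry or budding, tag proteins with the ubiquitin-like protein ISG15, or call immune cells. STAT3, a relative activated by other cytokines, is known to restrain the interferon response in several cell types.

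Library totals ran from 1539198 to 6621566 estimated counts, with siKlf6 replicate 1 the shallowest. Levels are given in CPM, the count of a gene scaled to the same library total, after TMM scaling within each of the 2 deposited tables (1 for siRNA and time 0, 1 for mRNA), so values are not compared between tables, nor between genes. Each targeted gene was lower in its knockdown group, with log2 fold changes between -2.58 for Atf4 and -1.46 for Rest, and no library overlapped siCONTROL. The 8 neuronal markers summed to 10058.7 to 12421 CPM in siStat3 libraries, 10141 to 11824 CPM in siKlf6 libraries and 11294 to 13612 CPM in siCONTROL libraries. The 8 T and NK cell markers summed to at most 3.59 CPM in any library. The 12 macrophage markers summed to 47.9 to 72.0 CPM in siStat3 libraries, 33.9 to 65.2 CPM in siKlf6 libraries and 31.1 to 46.6 CPM in siCONTROL libraries.

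The core of the response element was searched as GAAA, any 2 bases and GAAA again, and for the other strand as TTTC, any 2 bases and TTTC again, in the 250 bases before each gene's start in RefSeq annotation of GRCm38.p6. Of the 29 members with an entry, 12 held the core, against 3.46% of the 27025 genes with an entry (2.98% of all 32851 windows). The core was present in 9 of the 23 that were higher in siStat3 or siKlf6 in the tests below. It was also present in 3 of the 6 that passed in neither, Oas3, which was too low to be tested, among them. Rtp4, Ifi27, Ccl5, Parp14, Usp18, Ifi204, Parp9, Mx1, Parp10, Mx2 and Oas2 had no entry. The 200 bases before the start are printed for 6 members that hold the core, read along the strand of the gene, with the core matches in capitals. These 6 were picked by hand, and all were higher in both siStat3 and siKlf6 in the tests below. Ifit1, Ifit3 and Ifit3b lie on the plus strand at chr19:34640689-34640888, chr19:34583329-34583528 and chr19:34607757-34607956. Isg15, Rsad2 and Oas1a lie on the minus strand at chr4:156200819-156201018, chr12:26456453-26456652 and chr5:120907526-120907725.

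The Ensembl identifiers are ENSMUSG00000034459 for Ifit1, ENSMUSG00000074896 for Ifit3, ENSMUSG00000062488 for Ifit3b, ENSMUSG00000035692 for Isg15, ENSMUSG00000020641 for Rsad2 and ENSMUSG00000052776 for Oas1a.

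Ifit1: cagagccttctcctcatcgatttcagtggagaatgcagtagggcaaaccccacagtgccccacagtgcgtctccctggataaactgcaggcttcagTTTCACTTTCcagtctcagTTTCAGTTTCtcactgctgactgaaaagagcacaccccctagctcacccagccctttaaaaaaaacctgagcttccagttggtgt

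Ifit3: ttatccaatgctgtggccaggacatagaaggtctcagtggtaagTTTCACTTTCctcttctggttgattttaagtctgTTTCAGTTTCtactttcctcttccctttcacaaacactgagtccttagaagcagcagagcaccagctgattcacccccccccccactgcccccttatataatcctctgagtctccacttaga

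Ifit3b: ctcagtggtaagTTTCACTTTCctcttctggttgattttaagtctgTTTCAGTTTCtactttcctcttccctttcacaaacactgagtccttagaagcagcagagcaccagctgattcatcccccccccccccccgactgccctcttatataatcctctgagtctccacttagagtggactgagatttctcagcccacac

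Isg15: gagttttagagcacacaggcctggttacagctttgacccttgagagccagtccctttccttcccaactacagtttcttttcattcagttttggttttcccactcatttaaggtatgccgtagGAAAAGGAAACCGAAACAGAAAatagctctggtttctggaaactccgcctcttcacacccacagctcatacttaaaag

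Rsad2: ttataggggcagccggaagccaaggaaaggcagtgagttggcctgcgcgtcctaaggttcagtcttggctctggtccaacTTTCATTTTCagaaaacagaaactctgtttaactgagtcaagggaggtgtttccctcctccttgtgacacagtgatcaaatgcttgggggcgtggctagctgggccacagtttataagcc

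Oas1a: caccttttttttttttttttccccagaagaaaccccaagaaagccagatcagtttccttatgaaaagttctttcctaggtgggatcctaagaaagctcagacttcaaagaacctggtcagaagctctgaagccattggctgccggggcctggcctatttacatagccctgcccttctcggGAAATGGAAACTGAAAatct

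The windows of Ifit1, Ifit3 and Ifit3b each hold 2 separate cores, that of Isg15 holds 3 overlapping cores, that of Oas1a 2 overlapping cores and that of Rsad2 a single core. The cores of Ifit1 begin 104 and 85 bases before the start. Those of Ifit3 begin 156 and 122 bases before it. The others with the core were Oas3, Bst2, Trim30a, Ifi203, Ifi211 and Cxcl10. A match is a description of these letters and shows no binding.

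Knockdown of Stat3 was accompanied by higher levels of most of these genes. Of the 38 members tested, 27 were higher in siStat3 than in siCONTROL and 0 were lower, where 3.03% of all 14876 genes tested passed the same threshold (edgeR quasi-likelihood test, Benjamini-Hochberg adjusted p under 0.05) and 1.19% passed it as higher. The median log2 fold change of the members tested was 1.68, against 0.00 over all genes tested. As the list was made with earlier results known, these contrasts, and those for siKlf6 below, describe it and are no independent test. In 28 members all 4 siStat3 libraries lay above all 4 siCONTROL libraries, against 3.46% of all genes tested, and Herc6 and Parp14 passed although 1 library or more overlapped. Without siStat3 replicate 4, the highest library, 19 members passed, where 2.21% of all genes tested did. Herc6, Ifi44, Lgals3bp, Mx2, Oasl1, Parp10, Parp14 and Samd9l were no longer among them. In bulk samples a change in the number of cells of a type and a change in RNA per cell cannot be told apart.

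Knockdown of Klf6 gave 26 of 38 members higher and 0 lower than siCONTROL, where 1.85% of all genes tested passed and 0.706% passed as higher. The median log2 fold change of the members tested was 1.57. In 21 members all 4 siKlf6 libraries lay above all siCONTROL libraries, against 2.51% of all genes tested. This count rests on 1 library and on the spread borrowed from the other groups: 7 members passed without siKlf6 replicate 4 (Ifit1, Ifit3, Rsad2, Mx2, Cxcl10, Ifi204 and Parp9), where 1.06% of all genes tested passed, and 0 passed when siKlf6 and siCONTROL were fitted alone. In that last fit 18 of 13268 genes passed (0.136%), and the median log2 fold change of the members was 1.58. Both comparisons use the same 4 siCONTROL libraries, so their values are given side by side and are not independent. Oas2 and Oas3 were too low to be tested.

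The size of the difference varied between libraries of 1 group. The median over the 40 members of the log2 ratio to the siCONTROL mean was 0.88, 0.85, 1.84 and 1.95 in siStat3 replicates 1, 2, 3 and 4. It was 0.92, 0.47, 2.31 and 1.23 in siKlf6 replicates 1, 2, 4 and 5, against -0.12 to 0.14 in siCONTROL libraries. Replicate 4 of siStat3 held the highest value of its group for 33 of the 40 members, and replicate 4 of siKlf6 for 36 of 40. Replicate 2 of siKlf6 held the lowest value for 31. Over all genes tested, these libraries were the highest of their group for 23.4% (siStat3 replicate 4) and 21.1% (siKlf6 replicate 4). Members above the highest siCONTROL library numbered 32, 33, 38 and 38 of 40 in the siStat3 libraries, and 32, 23, 38 and 35 in the siKlf6 libraries. Of all genes tested, 22.3% to 22.6% lay above it in the siStat3 libraries and 19.1% to 27.7% in the siKlf6 libraries.

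**Figure D1:**
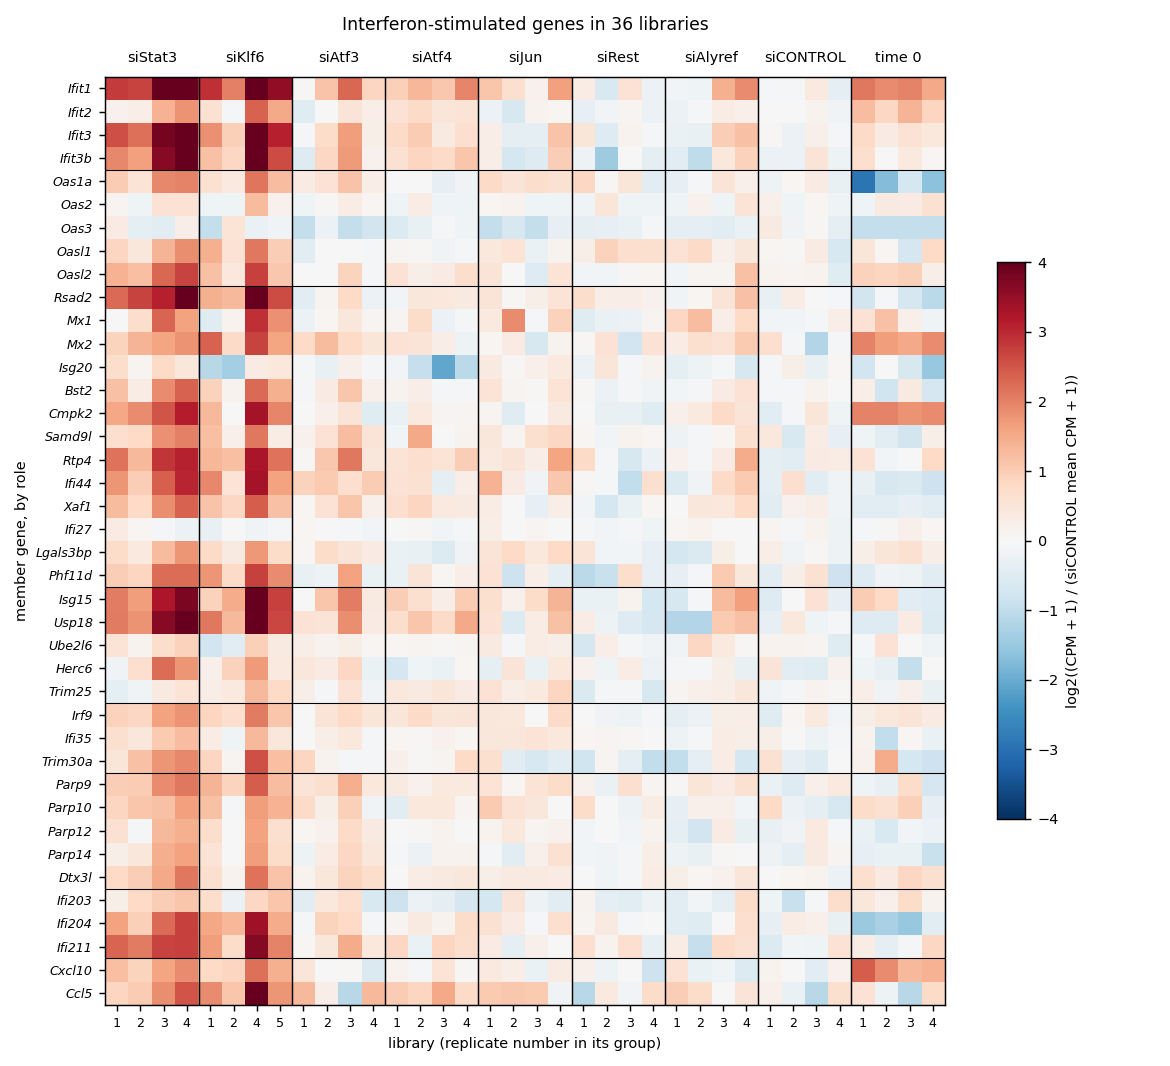
Each cell is 1 member (rows, grouped by role) in 1 library of the siRNA table (columns, with replicate numbers), coloured by the log2 ratio of its CPM + 1 to the siCONTROL mean + 1, with colours saturating at -4 and 4. The siStat3 and siKlf6 columns are red for most members, deepest in siStat3 replicates 3 and 4 and siKlf6 replicate 4, while the row of Ifi27 stays pale throughout.

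**Figure D2:**
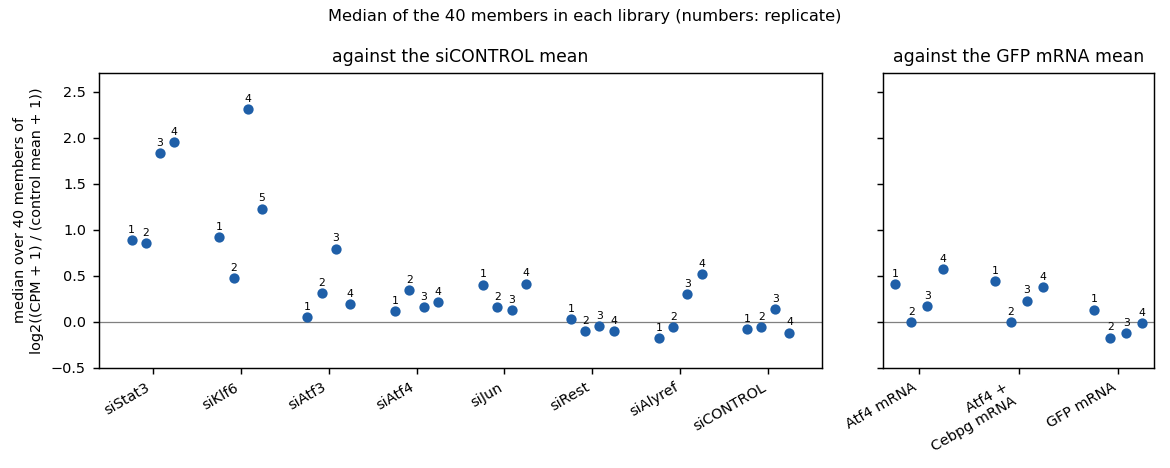
Each point is 1 library, placed by the median over the 40 members of its log2 ratio to the mean of its own control group, with siRNA groups on the left and mRNA groups on the right. All 4 siStat3 and all 4 siKlf6 libraries lie above the siCONTROL libraries, and siKlf6 replicate 4 reaches 2.31.

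Whether the amount of target left in a library goes with its member levels was not tested. Klf6 itself had 49.0, 31.9, 31.8 and 45.3 CPM in siKlf6 replicates 1, 2, 4 and 5, against 171, 163, 154 and 186 CPM in siCONTROL libraries. Replicates 2 and 4, nearly equal in Klf6, were the lowest and the highest for the members. Stat3 had 55.8, 49.5, 49.5 and 31.9 CPM in siStat3 libraries, against 258, 279, 262 and 281 CPM in siCONTROL libraries. Replicate 4 of siStat3, the lowest in Stat3, was the highest of its group for 33 of the 40 members. Stat3 did not pass the test in siKlf6 (log2 fold change 0.04 ± 0.08), while Klf6 fell by 0.45 on the log2 scale in siStat3 (adjusted p = 0.00595). Klf6 also fell by 0.38 in siAtf3, 0.40 in siJun and 0.48 in siAlyref (edgeR quasi-likelihood test, adjusted p = 0.00769, 0.00724 and 0.00201). These falls were far smaller than the 2.15 in siKlf6, and whether they go with member levels was not tested.

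The IFIT proteins bind viral RNA that lacks the cap modifications of the host. Ifit1, which holds uncapped and incompletely methylated RNA, had 36.7, 34.5, 107 and 154 CPM in siStat3 libraries and 39.6, 20.7, 226 and 62.5 CPM in siKlf6 libraries, against 4.15, 4.16, 6.10 and 3.22 CPM in siCONTROL libraries. Every library of both knockdowns lay above the control range, with siKlf6 replicate 4 far above the others of its group. Its log2 fold change was 4.21 ± 0.69 for siStat3 (± SE here and below; adjusted p = 0.00033) and 4.32 ± 0.69 for siKlf6 (adjusted p = 0.000371). These were the largest fold changes among the members in both comparisons.

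Ifit3, the partner that stabilises IFIT1 in human cells, had 75.0, 57.0, 178 and 230.1 CPM in siStat3 libraries and 43.4, 23.4, 285 and 109 CPM in siKlf6 libraries, against 12.2, 9.70, 13.4 and 11.3 CPM in siCONTROL libraries. No siStat3 or siKlf6 library overlapped the controls. Log2 fold changes were 3.54 ± 0.59 (adjusted p = 0.000379) and 3.36 ± 0.59 (adjusted p = 0.00131). Ifit3b, a near copy, had 16.5, 13.5, 56.2 and 73.6 CPM in siStat3 libraries and 9.43, 7.25, 85.7 and 27.4 CPM in siKlf6 libraries, against 2.97, 2.92, 5.59 and 2.99 CPM in siCONTROL libraries. The lowest siKlf6 library was just above the highest control, and the fold changes on the log2 scale were 3.43 ± 0.68 (adjusted p = 0.00261) and 3.20 ± 0.69 (adjusted p = 0.00795). Of the 31-base words in Ifit3 transcripts, 61.8% also occur in Ifit3b, so reads could be split between them and the share of each gene is uncertain. Ifit2, which in cells also acts on apoptosis, had 14.3, 15.0, 34.3 and 45.9 CPM in siStat3 libraries and 19.5, 11.97, 67.6 and 37.6 CPM in siKlf6 libraries, against 12.2, 12.3, 13.9 and 11.3 CPM in siCONTROL libraries. One siKlf6 library lay inside the control range, yet Ifit2 passed the test in siKlf6 (1.51 ± 0.36, adjusted p = 0.0228). It missed the threshold in siStat3 (1.14 ± 0.37, adjusted p = 0.0956), whose libraries all lay above the controls.

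The OAS enzymes are switched on by double-stranded RNA and make 2'-5'-oligoadenylates, which activate RNase L. Of 5 members, 3 could be tested, and all 3 were higher in siStat3 and in siKlf6. Oasl2, a family member, had 80.1, 68.9, 148 and 199 CPM in siStat3 libraries and 67.9, 39.7, 202 and 63.3 CPM in siKlf6 libraries, against 32.9, 32.2, 32.5 and 21.1 CPM in siCONTROL libraries. Groups did not overlap, and its log2 fold changes were 2.06 ± 0.39 (adjusted p = 0.0016) and 1.68 ± 0.39 (adjusted p = 0.0163). Oas1a had 14.5, 10.1, 27.8 and 29.5 CPM in siStat3 libraries and 10.7, 9.07, 32.8 and 16.9 CPM in siKlf6 libraries, against 5.64, 7.08, 8.64 and 5.29 CPM in siCONTROL libraries. The lowest library of each knockdown was close to the highest control, and the log2 fold changes were 1.60 ± 0.35 (adjusted p = 0.00582) and 1.42 ± 0.35 (adjusted p = 0.0268). Oas1a shares 68.7% of its 31-base words with Oas1g, so its level may include reads of that gene. Oasl1, known in the mouse to limit translation of Irf7 mRNA, had log2 fold changes of 1.40 ± 0.32 and 1.58 ± 0.32, both past the threshold. Oas2 stayed at or below 1.68 CPM and Oas3 at or below 1.81 CPM in every siStat3, siKlf6 and siCONTROL library.

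Among the 13 other antiviral effectors, 9 were higher in siStat3 and 9 in siKlf6. Rsad2 encodes viperin, which makes a chain-terminating nucleotide. It had 67.7, 93.3, 122 and 236 CPM in siStat3 libraries and 37.7, 34.6, 234 and 85.7 CPM in siKlf6 libraries, against 10.7, 16.5, 13.4 and 12.9 CPM in siCONTROL libraries. The lowest knockdown library was more than 2-fold above the highest control. Its log2 fold changes were 3.25 ± 0.46 (adjusted p = 3.72e-05) and 2.90 ± 0.46 (adjusted p = 0.000337). Cmpk2, the neighbouring gene of Rsad2 and a nucleotide kinase of mitochondria, had 18.3, 23.6, 36.9 and 57.2 CPM in siStat3 libraries and 15.1, 5.62, 65.3 and 24.7 CPM in siKlf6 libraries, against 3.86, 5.39, 8.30 and 4.83 CPM in siCONTROL libraries. All siStat3 libraries exceeded the controls, while siKlf6 replicate 2 lay among them. The log2 fold changes were 2.56 ± 0.45 (adjusted p = 0.000726) and 2.32 ± 0.45 (adjusted p = 0.00359).

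Rtp4, a chaperone of receptors that also inhibits viruses, had 37.9, 20.2, 62.5 and 72.9 CPM in siStat3 libraries and 20.7, 19.0, 82.9 and 37.9 CPM in siKlf6 libraries, against 5.64, 5.39, 9.99 and 9.65 CPM in siCONTROL libraries. Neither knockdown overlapped the controls, and its log2 fold changes were 2.65 ± 0.50 (adjusted p = 0.00152) and 2.43 ± 0.50 (adjusted p = 0.00564). Ifi44, an antiviral protein of the cytoplasm, had 12.2, 6.74, 19.7 and 31.3 CPM in siStat3 libraries and 13.8, 4.72, 38.6 and 10.96 CPM in siKlf6 libraries, against 2.08, 5.23, 1.86 and 2.53 CPM in siCONTROL libraries. The lowest siKlf6 library lay below the highest control, and log2 fold changes were 2.52 ± 0.56 (adjusted p = 0.00728) and 2.52 ± 0.57 (adjusted p = 0.0124). Lgals3bp, a secreted glycoprotein that binds galectin-3, had 114, 90.2, 167 and 236 CPM in siStat3 libraries and 118, 87.8, 232 and 115 CPM in siKlf6 libraries, against 83.1, 61.4, 70.1 and 59.1 CPM in siCONTROL libraries. Here the separation from the controls was narrow, with log2 fold changes of 1.16 ± 0.27 (adjusted p = 0.0092) and 1.04 ± 0.27 (adjusted p = 0.0361).

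Ifi27, a mitochondrial protein widely used as a marker of interferon exposure in human blood, was flat. It had 429, 367, 333 and 293 CPM in siStat3 libraries and 283, 351, 315 and 329 CPM in siKlf6 libraries, against 376, 327, 378 and 299 CPM in siCONTROL libraries. The 3 groups overlapped, with log2 fold changes of 0.05 ± 0.09 (adjusted p = 0.903) and -0.11 ± 0.09 (adjusted p = 0.735). Within groups it also varied little, its highest library being 1.46 times the lowest in siStat3 and 1.24 times in siKlf6. The median of that ratio over members was 2.94 in siStat3 and 4.38 in siKlf6, against 1.87 in siCONTROL.

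Bst2, the tether that holds budding virions at the cell surface, and Xaf1, a promoter of apoptosis, passed in both comparisons. Their log2 fold changes in siStat3 were 1.66 ± 0.35 and 1.70 ± 0.31, and in siKlf6 1.44 ± 0.35 and 1.57 ± 0.31. Mx2, a dynamin-like GTPase, had 5.30, 7.77, 9.18 and 10.9 CPM in siStat3 libraries and 16.3, 4.72, 21.2 and 9.22 CPM in siKlf6 libraries, against 4.45, 2.31, 0.508 and 2.30 CPM in siCONTROL libraries, above the controls in each of the 8 libraries. It passed in siStat3 (1.86 ± 0.47) and siKlf6 (2.48 ± 0.47). Mx1, its paralogue, had at most 6.05 CPM in siStat3 and 9.62 CPM in siKlf6, overlapped the controls and missed the threshold in both (adjusted p = 0.123 and 0.0715). Samd9l, which limits viral translation, passed in siStat3 (1.62 ± 0.44) and not in siKlf6 (1.35 ± 0.44, adjusted p = 0.141). Phf11d passed in siKlf6 (2.20 ± 0.56) and not in siStat3 (1.95 ± 0.56, adjusted p = 0.0538). Isg20, an exonuclease, had 11.4, 7.25, 12.3 and 9.53 CPM in siStat3 libraries and 2.51, 1.99, 8.55 and 9.22 CPM in siKlf6 libraries, against 6.23, 8.005, 5.25 and 7.13 CPM in siCONTROL libraries. It overlapped the controls and passed in neither, at 0.61 ± 0.35 and -0.18 ± 0.37.

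**Figure D3:**
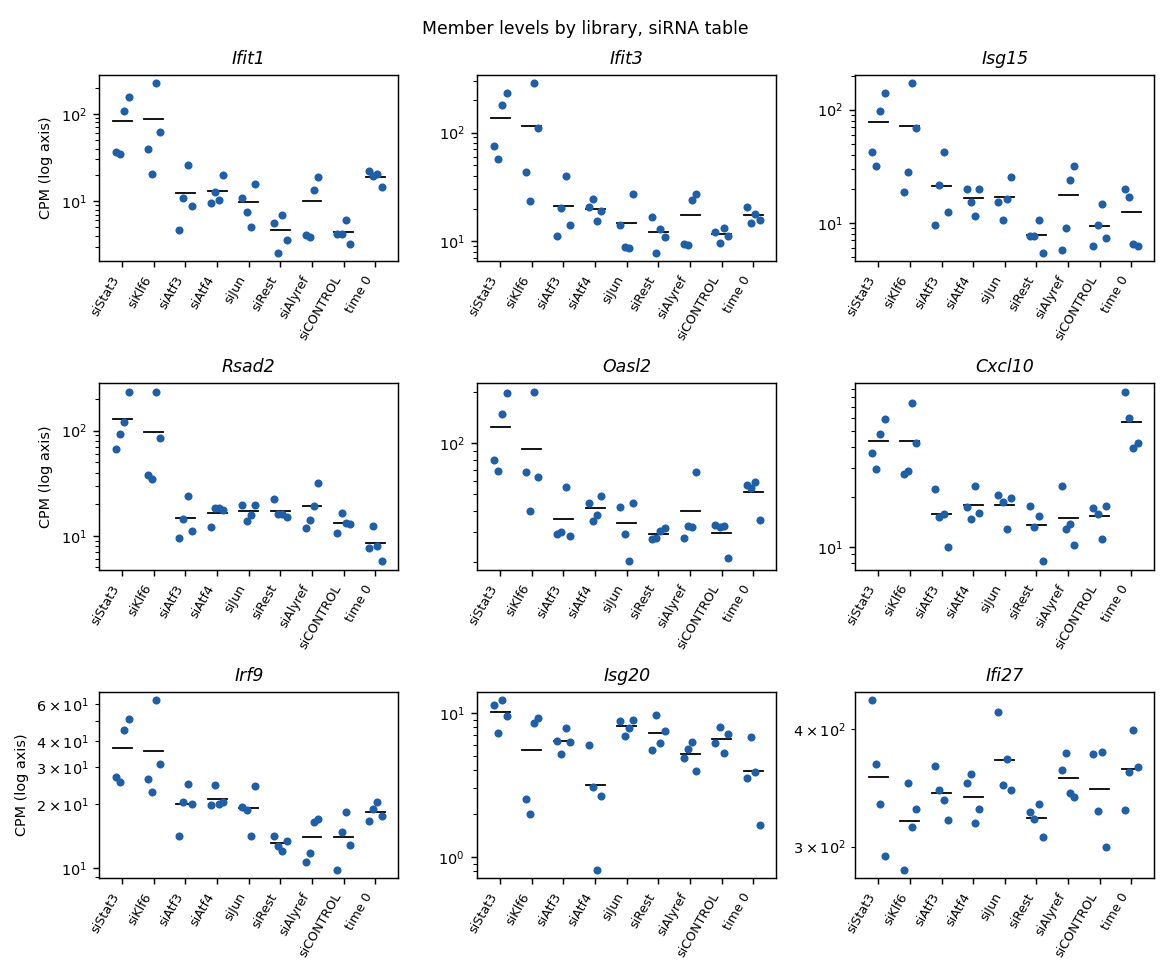
CPM of 9 members on a log axis, with 1 point for each library of the 9 groups of the siRNA table and a bar at the group mean. Ifit1, Ifit3, Isg15 and Rsad2 lie above siCONTROL in all siStat3 and siKlf6 libraries, Isg20 has its lowest mean in siAtf4, and the siStat3, siKlf6 and siCONTROL points of Ifi27 overlap.

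ISG15 is joined to target proteins much as ubiquitin is, and Ube2l6 and Herc6 are its E2 enzyme and, in the mouse, an E3 ligase. Isg15 had 42.4, 31.9, 98.1 and 141 CPM in siStat3 libraries and 18.9, 27.9, 172 and 68.3 CPM in siKlf6 libraries, against 6.23, 9.54, 14.6 and 7.35 CPM in siCONTROL libraries. All 8 knockdown libraries were above the controls, the closest being siKlf6 replicate 1. Log2 fold changes were 3.01 ± 0.59 (adjusted p = 0.00231) and 2.94 ± 0.59 (adjusted p = 0.00452). Usp18, which removes ISG15 and dampens signalling at the receptor, had 18.3, 14.8, 55.3 and 72.9 CPM in siStat3 libraries and 18.9, 10.2, 83.5 and 27.9 CPM in siKlf6 libraries, against 2.67, 5.08, 3.05 and 3.45 CPM in siCONTROL libraries. Again no library overlapped, and the log2 fold changes were 3.45 ± 0.65 (adjusted p = 0.00142) and 3.30 ± 0.65 (adjusted p = 0.00359).

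Ube2l6 had 33.0, 24.4, 37.2 and 43.2 CPM in siStat3 libraries and 12.6, 16.1, 44.1 and 28.9 CPM in siKlf6 libraries, against 24.6, 24.5, 24.2 and 15.6 CPM in siCONTROL libraries. Both knockdown groups overlapped the controls and neither difference passed (adjusted p = 0.214 and 0.779). Herc6 passed in siStat3 and not in siKlf6 (1.62 ± 0.42, against 1.19 ± 0.42 in siKlf6, adjusted p = 0.188). Trim25, a ubiquitin and ISG15 ligase that acts with the RNA sensor RIG-I, had 14.1, 16.8, 24.2 and 27.5 CPM in siStat3 libraries and 22.6, 24.8, 47.2 and 33.4 CPM in siKlf6 libraries, against 16.6, 17.9, 20.8 and 19.3 CPM in siCONTROL libraries. All siKlf6 libraries lay above the controls and siStat3 libraries lay on both sides of them. The log2 fold change was 0.81 ± 0.21 for siKlf6 (adjusted p = 0.0354) and 0.14 ± 0.21 for siStat3 (adjusted p = 0.86).

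In the signalling class, Irf9, the DNA-binding subunit of ISGF3, had 27.1, 25.6, 45.0 and 50.8 CPM in siStat3 libraries and 26.4, 22.9, 62.6 and 31.1 CPM in siKlf6 libraries, against 9.79, 14.8, 18.5 and 12.9 CPM in siCONTROL libraries. It lay above the controls in every knockdown library, with log2 fold changes of 1.39 ± 0.26 (adjusted p = 0.00173) and 1.37 ± 0.27 (adjusted p = 0.00339). Ifi35, a partner of Nmi, had 52.2, 45.3, 69.4 and 78.2 CPM in siStat3 libraries and 40.2, 28.8, 81.7 and 45.3 CPM in siKlf6 libraries, against 38.6, 32.6, 28.3 and 31.5 CPM in siCONTROL libraries. It passed in siStat3 (0.92 ± 0.20, adjusted p = 0.00604), where groups did not overlap, and missed in siKlf6 (0.62 ± 0.20, adjusted p = 0.136), where replicate 2 was among the controls. Trim30a, a negative regulator of inflammatory signalling in the mouse, passed in neither (adjusted p = 0.0785 and 0.0795).

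The PARP members belong to the family of ADP-ribosyltransferases, and Dtx3l is the ubiquitin ligase that pairs with Parp9. Of these 5 genes, 4 passed in siStat3 and 2 in siKlf6. Parp9 had 10.6, 10.9, 20.8 and 24.4 CPM in siStat3 libraries and 13.8, 9.79, 30.4 and 12.7 CPM in siKlf6 libraries, against 3.86, 3.08, 5.76 and 6.67 CPM in siCONTROL libraries. There was no overlap, and log2 fold changes were 1.79 ± 0.34 (adjusted p = 0.00168) and 1.82 ± 0.34 (adjusted p = 0.00261). Dtx3l passed as well, at 1.62 ± 0.33 and 1.45 ± 0.33. Parp12 had 17.5, 10.6, 28.4 and 31.7 CPM in siStat3 libraries and 18.9, 11.1, 35.7 and 17.7 CPM in siKlf6 libraries, against 8.90, 10.01, 14.7 and 10.8 CPM in siCONTROL libraries. Its replicate 2 overlapped the controls in both knockdowns, and neither difference passed (adjusted p = 0.0582 and 0.119). Parp10 and Parp14 passed in siStat3 (1.45 ± 0.38 and 1.17 ± 0.33) and missed in siKlf6 (1.39 ± 0.38 and 0.997 ± 0.33; adjusted p = 0.058 and 0.144).

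The p200 proteins bind nucleic acids in the nucleus or cytoplasm. Ifi211 had 8.56, 6.99, 11.4 and 11.7 CPM in siStat3 libraries and 5.03, 2.18, 23.2 and 6.48 CPM in siKlf6 libraries, against 0.297, 0.77, 0.677 and 1.84 CPM in siCONTROL libraries. Levels were low but did not overlap, and the log2 fold changes were 3.39 ± 0.67 (adjusted p = 0.00229) and 3.37 ± 0.67 (adjusted p = 0.00386). Ifi204, a sensor of foreign DNA, had 13.0, 8.03, 21.3 and 29.7 CPM in siStat3 libraries and 12.6, 10.7, 47.8 and 11.96 CPM in siKlf6 libraries, against 2.67, 4.77, 4.40 and 2.76 CPM in siCONTROL libraries. Its libraries were also separate from the controls, at 2.26 ± 0.45 (adjusted p = 0.00237) and 2.51 ± 0.45 (adjusted p = 0.00147) on the log2 scale. Ifi203 had 3.87, 6.22, 7.17 and 7.98 CPM in siStat3 libraries and 5.66, 2.54, 6.26 and 7.97 CPM in siKlf6 libraries, against 2.67, 1.23, 2.88 and 5.75 CPM in siCONTROL libraries. Groups overlapped, and it passed in neither (adjusted p = 0.274 and 0.478). The 3 genes share sequence with relatives, 78.9% of the 31-base words of Ifi211, 34.0% of those of Ifi204 and 21.6% of those of Ifi203, so the split of reads within this family is uncertain.

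Cxcl10, the chemokine that draws T cells through Cxcr3, had 36.7, 29.5, 48.4 and 59.4 CPM in siStat3 libraries and 27.7, 28.8, 74.4 and 42.6 CPM in siKlf6 libraries, against 17.2, 15.7, 11.2 and 17.7 CPM in siCONTROL libraries. Each knockdown library exceeded each control, with log2 fold changes of 1.51 ± 0.30 (adjusted p = 0.00228) and 1.54 ± 0.30 (adjusted p = 0.00309). Ccl5, a chemokine for T cells and monocytes, had 2.85, 3.37, 6.72 and 11.3 CPM in siStat3 libraries and 6.91, 3.63, 34.5 and 6.23 CPM in siKlf6 libraries, against 1.48, 0.77, 0 and 2.30 CPM in siCONTROL libraries. Libraries did not overlap in either comparison, but levels were low and 1 siKlf6 library carried most of that group's signal. Ccl5 passed in siKlf6 (3.63 ± 0.80, adjusted p = 0.011) and not in siStat3 (2.50 ± 0.82, adjusted p = 0.102).

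**Figure D4:**
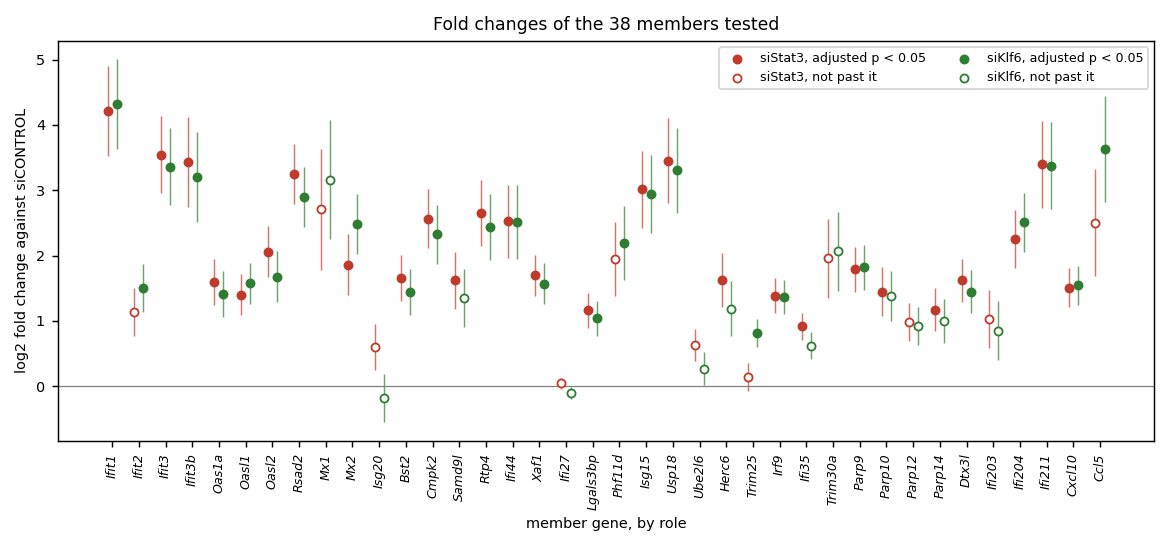
Log2 fold change against siCONTROL (points) with its standard error (bars) for the 38 members tested, siStat3 in red and siKlf6 in green, filled where the adjusted p was under 0.05. Ifit1 has the largest values in both, 4.21 and 4.32, and Ifi27 lies at 0.05 and -0.11.

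Macrophages respond strongly to interferon, and the sums of their markers given above lay higher in every siStat3 library than in any siCONTROL library, while those of siKlf6 overlapped. Of the 12 markers, C1qa, C1qc and Tyrobp were at 0 in every siStat3 and siKlf6 library, and Fcer1g was also at 0 in siKlf6. In siCONTROL libraries C1qa, C1qc and Ptprc were at 0. Cd68, a lysosomal protein that other cells also express, made up most of the sum, with 46.9, 63.0, 41.6 and 51.4 CPM in siStat3 libraries and 25.1, 55.0, 57.4 and 47.8 CPM in siKlf6 libraries, against 23.7, 39.6, 26.6 and 31.5 CPM in siCONTROL libraries. Csf1r, the defining growth factor receptor, had at most 5.15 CPM in siStat3, 3.97 CPM in siKlf6 and 5.59 CPM in siCONTROL. Adgre1, Aif1, C1qb, Cx3cr1, Mrc1 and Ptprc had at most 1.55 CPM in siStat3, 4.40 CPM in siKlf6 and 1.38 CPM in siCONTROL. Fcer1g reached 2.33 CPM in siStat3 and 2.08 CPM in siCONTROL, and Tyrobp 2.37 CPM in siCONTROL. The 5 neutrophil markers summed to 4.15 to 8.76 CPM in siStat3 libraries and 3.77 to 15.6 CPM in siKlf6 libraries, against 10.3 to 13.1 CPM in siCONTROL libraries. The part of these cells in the result was not tested.

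Of 49 pathway genes matched from a list of interferons, receptors, kinases, transcription factors, inhibitors and nucleic acid sensors, 32 could be tested in the knockdowns. In siStat3, 7 were higher and 1 was lower, and in siKlf6 7 were higher and 0 were lower. Of all genes tested, 3.03% passed in siStat3 and 1.85% in siKlf6. Irf7, the factor that amplifies interferon production, had 11.2, 10.9, 33.1 and 49.9 CPM in siStat3 libraries and 20.1, 11.8, 76.0 and 30.9 CPM in siKlf6 libraries, against 6.23, 6.16, 7.28 and 1.61 CPM in siCONTROL libraries. No library overlapped, with log2 fold changes of 2.28 ± 0.52 (adjusted p = 0.0092) and 2.72 ± 0.52 (adjusted p = 0.00302).

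The RNA sensors Ddx58 (RIG-I), Ifih1 (MDA5) and Dhx58 (LGP2) and the RNA-activated kinase Eif2ak2 (PKR) were higher in both knockdowns. Their log2 fold changes were 1.55, 2.14, 2.32 and 1.19 in siStat3, and 1.68, 2.08, 1.95 and 1.08 in siKlf6. Stat2, a subunit of ISGF3, was higher by 1.26 ± 0.28 in siStat3 and 1.23 ± 0.28 in siKlf6. Irf1 passed in siStat3 (1.10 ± 0.20), and Zbp1, a sensor of left-handed nucleic acid, passed in siKlf6 (2.48 ± 0.67). Socs3, a feedback inhibitor and a known target of STAT3, fell by 1.53 on the log2 scale in siStat3, to 9.75 to 12.03 CPM against 27.6 to 34.8 CPM in siCONTROL. In siKlf6 Socs3 had 27.5 to 33.7 CPM and did not pass, and the direct difference of siStat3 from siKlf6 was -1.51 ± 0.15 (adjusted p = 1.22e-07). Neither receptor chain, Ifnar1 or Ifnar2, passed in any knockdown.

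The interferon genes themselves were near the limit of detection. Of 12 matched, 6 (Ifna1, Ifna4, Ifna5, Ifna11, Ifne and Ifnl3) were at 0 in all 48 libraries. Ifnb1, the interferon most often made by cells other than immune cells, had 13 estimated counts in siKlf6 replicate 4, 10 in siStat3 replicate 3 and 6 in siAtf4 replicate 3, and 0 in the other 45 libraries. Estimated counts need not equal reads, so the number of molecules behind these values is unknown. Of these 3 libraries, siKlf6 replicate 4 was the highest of its group for 36 members. The siStat3 library, replicate 3, had a member median of 1.84. Replicate 4 of siStat3, with a median of 1.95 and the highest value for 33 members, had 0 counts of Ifnb1. The siAtf4 library had a member median of 0.16, within the 0.11 to 0.34 of its group. Whether Ifnb1 counts go with member levels was not tested. No interferon gene was high enough to be tested.

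When siStat3 was set directly against siKlf6, a comparison added after the data were seen, 0 of 38 members passed, where 5.52% of all genes tested did (edgeR quasi-likelihood test). At an unadjusted p under 0.05 there were 2, against 17.2% of all genes tested, and DESeq2 called 1, Trim25. The members with the smallest p were Trim25 (-0.67 ± 0.21, adjusted p = 0.0571), Isg20 (0.79 ± 0.36, adjusted p = 0.25) and Ifi27 (0.15 ± 0.09, adjusted p = 0.418), with libraries that overlapped between the groups. For Ifit1 the difference was -0.11 ± 0.53 and for Isg15 0.07 ± 0.51, so that a difference of the size of the standard error cannot be seen here. Without siKlf6 replicate 4, Ifi35, Oasl2 and Rsad2 passed as higher in siStat3, and without siStat3 replicate 4, siKlf6 replicate 1 or siKlf6 replicate 2, Trim25 passed as lower.

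The other 5 knockdowns called 0 members with edgeR's quasi-likelihood test, and 0 with DESeq2. Of all genes tested, 11.5% passed in siAtf3, 6.91% in siAtf4, 7.78% in siJun, 0.202% in siRest and 4.26% in siAlyref. At an unadjusted p under 0.05 there were 3 members in siAtf3, 3 in siAtf4, 4 in siJun, 1 in siRest and 0 in siAlyref. Of all genes tested, 23.7%, 18.5%, 19.3%, 6.1% and 15.2% had such a p in these knockdowns. Median log2 fold changes of the members tested were 0.49, 0.38, 0.35, -0.01 and 0.28 in the same order. Neuronal marker sums were 8812 to 10537 CPM in siAtf3, against 11294 to 13612 CPM in siCONTROL. Schwann cell sums were 1041 to 1197 CPM in siAtf3, against 1357 to 1581, and macrophage sums 24.2 to 29.5, against 31.1 to 46.6 CPM. Satellite glia sums were 413 to 543, 501 to 627 and 373 to 585 CPM in siAtf3, siAtf4 and siJun, against 631 to 730 CPM. Neutrophil sums were 15.7 to 19.3 CPM in siJun, against 10.3 to 13.1 CPM. The part of other cells was not tested.

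In siAtf3, replicate 3 was highest for 30 of the 40 members and lay above all siCONTROL libraries for 31, against 26.3% and 26.1% of all genes tested. Parp9 had 7.42, 8.17, 15.1 and 6.75 CPM in siAtf3 libraries, against 3.86, 3.08, 5.76 and 6.67 CPM in siCONTROL libraries, without overlap (0.95 ± 0.35, adjusted p = 0.0742). Mx2 had 4.81, 7.22, 4.84 and 3.71 CPM in siAtf3 libraries, against 4.45, 2.31, 0.508 and 2.30 CPM in siCONTROL libraries, with 1 library inside the control range (1.18 ± 0.47, adjusted p = 0.109). Mx2 passed without siCONTROL replicate 1. Rtp4 had 8.02, 17.1, 36.1 and 10.8 CPM in siAtf3 libraries, against 5.64, 5.39, 9.99 and 9.65 CPM in siCONTROL libraries, and overlapped (1.22 ± 0.51, adjusted p = 0.13). Ifit1 and Isg15 had 4.61, 10.99, 25.7 and 8.78 CPM and 9.62, 21.5, 41.9 and 12.5 CPM in siAtf3 libraries, replicate 3 being the highest for both. Parp9 was the only member of 40 whose siAtf3 libraries all lay above the controls, against 7.46% of all genes tested.

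In siAtf4, all libraries lay above all controls for 11 members, against 6.35% of all genes tested. Ifit1 had 9.57, 12.7, 10.4 and 19.8 CPM in siAtf4 libraries, against 4.15, 4.16, 6.10 and 3.22 CPM in siCONTROL libraries (1.54 ± 0.75, adjusted p = 0.264). Irf9 had 19.8, 24.6, 20.2 and 20.5 CPM in siAtf4 libraries, against 9.79, 14.8, 18.5 and 12.9 CPM in siCONTROL libraries (0.57 ± 0.27, adjusted p = 0.242). Neither gene overlapped the controls, and Ifit2, Ifit3, Ifit3b, Oasl2, Xaf1, Rtp4, Usp18, Trim25 and Ccl5 were also separate. Isg20, in contrast, had 6.05, 3.08, 0.815 and 2.65 CPM in siAtf4 libraries, against 6.23, 8.005, 5.25 and 7.13 CPM in siCONTROL libraries. The other libraries lay below the control range that replicate 1 was inside (-1.06 ± 0.38, adjusted p = 0.0973), and without replicate 1 Isg20 passed as lower. With siAtf4 and siCONTROL fitted alone, 4 of 37 members passed as higher, Ifit1, Ifit2, Ifit3 and Usp18, where 5.53% of all genes tested passed.

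In siJun, all libraries lay above all controls for 5 members, Trim25, Ifi35, Lgals3bp, Dtx3l and Oas1a, against 5.96% of all genes tested. Trim25 had 28.5, 22.6, 24.7 and 34.4 CPM in siJun libraries, against 16.6, 17.9, 20.8 and 19.3 CPM in siCONTROL libraries (0.56 ± 0.21, adjusted p = 0.104). Ifi35 had 45.5, 45.6, 48.2 and 43.9 CPM in siJun libraries, against 38.6, 32.6, 28.3 and 31.5 CPM in siCONTROL libraries (0.50 ± 0.20, adjusted p = 0.147). Lgals3bp had 98.4, 118, 92.2 and 121 CPM in siJun libraries, against 83.1, 61.4, 70.1 and 59.1 CPM in siCONTROL libraries (0.66 ± 0.27, adjusted p = 0.147). In all 3 genes the lowest siJun library lay just above the highest control, and with siJun and siCONTROL fitted alone Ifi35 and Lgals3bp passed. These are 2 of 35 members, where 5.8% of all genes tested passed.

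In siRest no member had all its libraries above the controls, against 1.58% of all genes tested. Oasl1 had 5.07, 8.79, 7.20 and 6.99 CPM in siRest libraries, against 4.45, 4.31, 5.42 and 2.30 CPM in siCONTROL libraries, and overlapped (0.78 ± 0.32, adjusted p = 0.691). Trim25 had 12.2, 17.8, 18.0 and 11.6 CPM in siRest libraries, against 16.6, 17.9, 20.8 and 19.3 CPM in siCONTROL libraries (-0.31 ± 0.22, adjusted p = 0.917). Ifi27 had 326, 321, 332 and 307 CPM in siRest libraries, against 376, 327, 378 and 299 CPM in siCONTROL libraries (-0.10 ± 0.09, adjusted p = 0.955). The siRest libraries of all 3 genes overlapped the controls.

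In siAlyref no member had all its libraries above the controls, against 3.74% of all genes tested. Ifit1 had 4.05, 3.83, 13.5 and 19.1 CPM, Isg15 5.74, 8.94, 24.1 and 31.6 CPM and Usp18 1.01, 1.02, 8.33 and 9.36 CPM in siAlyref libraries. In these genes, picked after their values were seen, replicates 3 and 4 lay above replicates 1 and 2, which was not so for Mx1 and Oasl1. Mx2 had 3.21, 4.34, 4.05 and 6.03 CPM in siAlyref libraries, against 4.45, 2.31, 0.508 and 2.30 CPM in siCONTROL libraries (0.95 ± 0.48, adjusted p = 0.352). Mx1 had 1.52, 2.30, 0.676 and 1.46 CPM in siAlyref libraries, against 0.297, 0.308, 0.339 and 0.69 CPM in siCONTROL libraries (1.81 ± 0.95, adjusted p = 0.372). Oasl1 had 6.58, 7.67, 4.95 and 6.03 CPM in siAlyref libraries, against 4.45, 4.31, 5.42 and 2.30 CPM in siCONTROL libraries (0.60 ± 0.33, adjusted p = 0.402). These groups overlapped as well.

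Among pathway genes, 1 was lower in siAtf3 (Socs3, -0.42), none passed in siAtf4 and siRest, 1 was lower in siAlyref (Ifngr2, a chain of the interferon-gamma receptor, -0.46), and 2 were higher in siJun. Of these, Tmem173, which encodes the DNA pathway adaptor STING, had 36.7, 69.1, 37.3 and 41.0 CPM in siJun libraries, against 22.2, 19.4, 6.44 and 14.3 CPM in siCONTROL libraries, without overlap (1.58 ± 0.34, adjusted p = 0.00248). The other was Il10rb, at 0.30 ± 0.09. Of all genes tested, 11.5% passed in siAtf3, 6.91% in siAtf4, 7.78% in siJun, 0.202% in siRest and 4.26% in siAlyref.

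Expression of Atf4 from mRNA was accompanied by higher levels of 6 of 35 members and lower levels of 0, relative to GFP mRNA, where 4.84% of all 13857 genes tested passed and 2.76% passed as higher. Atf4 itself rose by 4.46 on the log2 scale. The satellite glia markers summed to 352 to 411 CPM in Atf4 mRNA libraries and 314 to 437 CPM in Atf4 + Cebpg mRNA libraries, against 476 to 535 CPM in GFP mRNA libraries. Endothelial and mural cell markers summed to 266 to 320 CPM and 288 to 348 CPM in these groups, against 204 to 273 CPM in GFP mRNA libraries. Neutrophil markers summed to 2.88 to 11.7 CPM in Atf4 mRNA libraries and 18.7 to 38.9 CPM in Atf4 + Cebpg mRNA libraries, against 6.62 to 14.0 CPM in GFP mRNA libraries. The Atf4 + Cebpg sums overlapped the GFP sums in none of these lists and the Atf4 sums overlapped them in the last 2 lists, and the part of other cells in the results was not tested. Isg15 had 30.2, 19.9, 15.3 and 33.3 CPM in Atf4 mRNA libraries and 41.6, 20.1, 40.5 and 31.4 CPM in Atf4 + Cebpg mRNA libraries, against 6.69, 7.60, 5.76 and 13.0 CPM in GFP mRNA libraries. All libraries of both groups lay above the GFP libraries, with log2 fold changes of 1.58 ± 0.31 (adjusted p = 0.0116) and 2.00 ± 0.31 (adjusted p = 0.000446). Mx2 had 5.11, 7.29, 10.04 and 7.88 CPM in Atf4 mRNA libraries and 11.4, 7.62, 6.96 and 7.33 CPM in Atf4 + Cebpg mRNA libraries, against 1.88, 2.42, 2.26 and 3.65 CPM in GFP mRNA libraries. It too was separate in both, at 1.57 ± 0.29 (adjusted p = 0.00652) and 1.68 ± 0.29 (adjusted p = 0.000876).

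Rsad2 had 46.3, 53.9, 43.9 and 64.3 CPM in Atf4 mRNA libraries and 38.8, 28.9, 36.8 and 45.6 CPM in Atf4 + Cebpg mRNA libraries, against 24.7, 30.2, 16.9 and 21.9 CPM in GFP mRNA libraries. The Atf4 libraries were separate and the Atf4 + Cebpg libraries overlapped, and both passed, at 1.15 ± 0.18 (adjusted p = 0.0033) and 0.67 ± 0.19 (adjusted p = 0.0184, lost without Atf4 + Cebpg mRNA replicate 4 or GFP mRNA replicate 3). Oas1a had 15.1, 18.0, 19.0 and 18.0 CPM in Atf4 mRNA libraries and 17.8, 17.0, 22.4 and 19.5 CPM in Atf4 + Cebpg mRNA libraries, against 8.36, 11.7, 9.25 and 10.7 CPM in GFP mRNA libraries. These were separate with little spread, at 0.81 ± 0.15 (adjusted p = 0.00635) and 0.94 ± 0.15 (adjusted p = 0.000438). Isg20 had 8.18, 12.7, 16.1 and 11.2 CPM in Atf4 mRNA libraries, against 5.85, 6.22, 8.63 and 6.62 CPM in GFP mRNA libraries, with 1 library overlapping. It passed narrowly (0.82 ± 0.22, adjusted p = 0.0477) and did not pass without any 1 of Atf4 mRNA replicates 2, 3 and 4 or GFP mRNA replicates 1, 2 and 4.

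Cxcl10 had 51.4, 42.8, 40.6 and 28.5 CPM in Atf4 mRNA libraries, against 14.0, 16.9, 12.5 and 19.9 CPM in GFP mRNA libraries. No library overlapped, and the log2 fold change was 1.37 ± 0.19 (adjusted p = 0.00147). When Cebpg mRNA was added, Cxcl10 had 14.6, 22.5, 22.1 and 16.7 CPM in Atf4 + Cebpg mRNA libraries, all below the 4 libraries with Atf4 mRNA alone and overlapping the GFP libraries. This difference passed (-1.08 ± 0.20, adjusted p = 0.0044). It was the only member of 35 to pass between these 2 groups, where 6.6% of all genes tested passed and 2.1% passed as lower. Members whose Atf4 libraries all lay above the GFP libraries numbered 7, Irf9 and Ifi44 among them, against 6.42% of all genes tested.

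With Atf4 and Cebpg mRNA together, 7 of 35 members were higher than with GFP mRNA and 0 were lower, but 24.6% of all genes tested passed in this comparison and 12.4% passed as higher. Ifi44 had 34.3, 6.22, 5.96 and 7.10 CPM in Atf4 + Cebpg mRNA libraries, against 4.60, 2.25, 0.822 and 2.28 CPM in GFP mRNA libraries. All 4 lay above the GFP libraries, but replicate 1, the shallowest of the mRNA table, was several-fold above its group (2.31 ± 0.62, adjusted p = 0.0153). Ifi44 also passed without that library. Ifi203 had 7.31, 6.22, 4.22 and 8.01 CPM in Atf4 + Cebpg mRNA libraries, against 3.13, 1.90, 1.44 and 1.83 CPM in GFP mRNA libraries, separate throughout (1.62 ± 0.35, adjusted p = 0.00445). Bst2 had 36.1, 31.3, 36.5 and 38.5 CPM in Atf4 + Cebpg mRNA libraries, against 25.3, 23.2, 22.2 and 24.0 CPM in GFP mRNA libraries, also separate (0.59 ± 0.16, adjusted p = 0.0152). Ifit1, at 10.5, 3.84, 2.62 and 15.2 CPM in Atf4 mRNA libraries and 18.7, 5.01, 6.71 and 10.8 CPM in Atf4 + Cebpg mRNA libraries against 7.52, 2.76, 3.91 and 5.93 CPM in GFP mRNA libraries, overlapped and did not pass. Ifit2, Ifit3 and Ifit3b did not pass in either mRNA group.

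Of 29 pathway genes tested with both mRNAs together, 2 were higher than with GFP mRNA (Jak1 and Ptpn6) and 2 lower (Irf5 and Jak2). Of all genes tested, 24.6% passed in this comparison. With Atf4 mRNA alone no pathway gene passed, where 4.84% of all genes tested did.

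**Figure D5:**
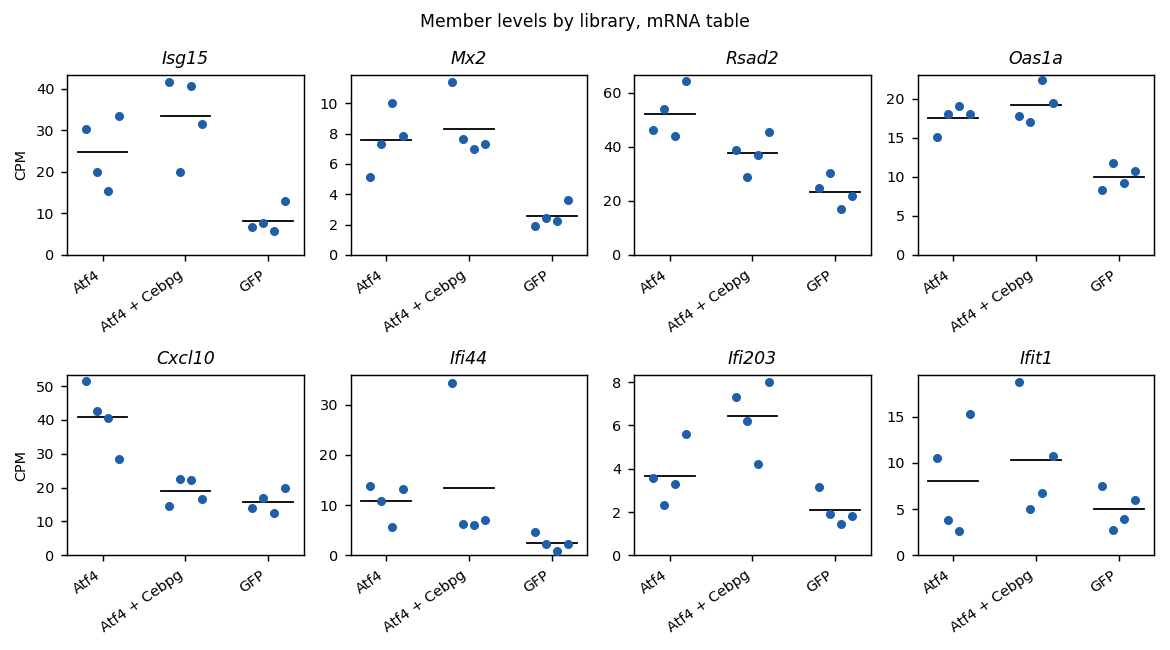
CPM of 8 members in each library of the mRNA table (points) with the group mean (bar), on linear axes that start at 0. Isg15, Mx2 and Oas1a are higher in both Atf4 groups than in GFP libraries, Cxcl10 in the Atf4 group alone, and Ifi44 has 1 Atf4 + Cebpg library far above the rest.

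During culture from isolation to 42 h with siCONTROL, the members moved in both directions. Of 33 tested, 4 were higher and 9 lower in siCONTROL than at time 0, where 57.9% of all 13448 genes tested passed, 28.7% as higher and 29.2% as lower. The satellite glia markers summed to 631 to 729.7 CPM in siCONTROL libraries, against 4342 to 5401 CPM at time 0, and the macrophage markers to 31.1 to 46.6 CPM, against 15.5 to 29.9 CPM. The neuronal markers summed to 11294 to 13612 CPM in siCONTROL libraries, against 16115 to 17094 CPM at time 0, and the Schwann cell markers to 1357 to 1581 CPM, against 2115 to 2491 CPM. Endothelial and mural cell markers summed to 233 to 298 CPM in siCONTROL libraries, against 152 to 202 CPM at time 0, and neutrophil markers to 10.3 to 13.1 CPM, against 0 to 3.59 CPM. Mitochondrially encoded RNA, a sign of RNA quality, summed to 19553 to 28620 CPM in siCONTROL libraries, against 43524 to 51075 CPM at time 0. The part of these shifts in the result was not tested, and transfection and time in culture cannot be told apart.

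Cxcl10 had 17.2, 15.7, 11.2 and 17.7 CPM in siCONTROL libraries, against 86.7, 59.8, 39.4 and 42.6 CPM at time 0, without overlap (-1.91 ± 0.25, adjusted p = 6.89e-05). Cmpk2 had 3.86, 5.39, 8.30 and 4.83 CPM in siCONTROL libraries, against 25.0, 25.3, 22.1 and 23.7 CPM at time 0 (-2.07 ± 0.20, adjusted p = 6.89e-06). Ifit1 had 4.15, 4.16, 6.10 and 3.22 CPM in siCONTROL libraries, against 22.4, 19.2, 20.4 and 14.3 CPM at time 0 (-2.10 ± 0.22, adjusted p = 1.2e-05). For these 3 genes every siCONTROL library lay far below every time 0 library. Mx2 had 4.45, 2.31, 0.508 and 2.30 CPM in siCONTROL libraries, against 12.5, 9.83, 8.79 and 11.5 CPM at time 0 (-2.24 ± 0.42, adjusted p = 0.00084). Ifit2 had 12.2, 12.3, 13.9 and 11.3 CPM in siCONTROL libraries, against 30.7, 22.9, 33.5 and 23.4 CPM at time 0 (-1.16 ± 0.16, adjusted p = 9.09e-05). Both were again separate. Oasl2 had 32.9, 32.2, 32.5 and 21.1 CPM in siCONTROL libraries, against 57.1, 54.8, 58.8 and 35.4 CPM at time 0 (-0.80 ± 0.18, adjusted p = 0.00282). Dtx3l had 4.45, 4.77, 5.08 and 3.68 CPM in siCONTROL libraries, against 7.69, 6.12, 8.79 and 7.65 CPM at time 0 (-0.74 ± 0.22, adjusted p = 0.0138). Ifit3 (-0.58 ± 0.16) and Lgals3bp (-0.42 ± 0.12) were also lower.

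Oas1a was higher, with 5.64, 7.08, 8.64 and 5.29 CPM in siCONTROL libraries, against 0, 1.31, 3.68 and 1.43 CPM at time 0 (2.02 ± 0.59, adjusted p = 0.0117). Ifi204 had 2.67, 4.77, 4.40 and 2.76 CPM in siCONTROL libraries, against 0.659, 0.874, 0.613 and 2.39 CPM at time 0 (1.71 ± 0.46, adjusted p = 0.00766). Both were separate between the groups. Rsad2 had 10.7, 16.5, 13.4 and 12.9 CPM in siCONTROL libraries, against 7.69, 12.4, 7.97 and 5.74 CPM at time 0, with overlap (0.66 ± 0.24, adjusted p = 0.0323). Xaf1 was higher by 0.44 ± 0.15. The calls of Rsad2 and Xaf1 were lost without time 0 replicate 1 or 4 or siCONTROL replicate 2 or 3. That of Rsad2 was also lost without time 0 replicate 3 or siCONTROL replicate 4, and that of Xaf1 without time 0 replicate 2. Cmpk2, the genomic neighbour of Rsad2, was among those that were lower. Among the 29 pathway genes tested, 4 were higher and 9 lower, where 28.7% of all genes tested passed as higher and 29.2% as lower. Socs3 had 27.6 to 34.8 CPM in siCONTROL libraries, against 102 to 139 CPM at time 0. Irf1 had 8.90 to 17.5 CPM in siCONTROL libraries, against 68.1 to 76.2 CPM at time 0. When all groups of the table were fitted together, 7 members passed, a count given without its share over all genes tested.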

How the data were processed

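Per the submitters' processing notes the authors used kallisto and GRCm39, and they deposited estimated counts per gene in 2 tables, the mRNA groups apart from the rest. The sources used here give no version, annotation or length scaling. Every column belonged to a sample and 0 were left unused. RNA was purified with an RNeasy micro kit and made into stranded mRNA libraries per the labels' protocols. Counts were rounded. Gene symbols came from GENCODE M21 (GRCm38), which named 32470 of 34183 identifiers, and promoters from RefSeq. Libraries were grouped by their treatment label. Tests used edgeR 4.0.16 (limma 3.58.1, R 4.3.3) with filterByExpr, TMM scaling and the quasi-likelihood test, Benjamini-Hochberg adjusted over all genes tested. One fit covered the 7 knockdowns with siCONTROL (32 libraries), 1 the mRNA table and 1 siCONTROL with time 0. DESeq2 1.42.0, other scaling, no filter, 2-group fits, a replicate block and omission of each library were alternatives. Same-numbered libraries correlated at 0.0105 to 0.178, all positive, but not all above 0.1 in any comparison. By this chosen cutoff the numbers were not taken to pair them, and the main fits hold no block for the number. Libraries that share no batch would correlate near 0. Beyond these correlations and the replicate block, whether libraries of 1 number share a batch was not tested. With the replicate block 751 of all genes tested passed in siStat3, against 450 without it. The code was tested on simulated data. The members and lists were chosen with earlier results of these data known. One listed pathway gene is not reported here. Values in every library were given for up to 10 members with the largest change among those that passed in a comparison, for the 3 with the smallest p where none passed, and for the members with the highest mean CPM in each role class; other members given in this way were picked after their values were seen. Total counts set the precision of low genes, where a few counts decide a value.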

Additional observations from a re-analysis of the deposited data

Results flagged for a closer look

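Each of 384 sets of 4 libraries (a member in a group) was examined for a library far from the other 3 by Dixon's test, which by chance marks about 1 set in 20, and 27 were marked. In siKlf6, replicate 4 stood far above the others for Ifi204 (47.79 CPM) and Ccl5 (34.51 CPM). In siAtf3, replicate 3 was far above for Oasl2 (55.46 CPM), Usp18 (15.63 CPM) and Parp9 (15.08 CPM), and replicate 1 far below for Oasl1 (2.806 CPM). In siAlyref, replicate 4 was far above for Oasl2 (67.63 CPM) and Rtp4 (23.1 CPM). In siJun, replicate 4 was far above for Rtp4 (24.62 CPM) and far below for Ccl5 (0.9185 CPM). In siAtf4, replicate 2 was far above for Irf9 (24.64 CPM) and far below for Parp9 (5.582 CPM), and replicate 1 far below for Rsad2 (12.26 CPM). In siRest, replicate 1 was far above for Rsad2 (22.3 CPM).

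Among the mRNA groups, Atf4 + Cebpg replicate 1, the shallowest library of that table, was far above for Ifi44 (34.26 CPM), Rtp4 (21.01 CPM), Mx2 (11.42 CPM) and Mx1 (4.568 CPM). Replicate 3 of that group was far above for Ube2l6 (27.58 CPM) and replicate 2 far below for Parp12 (7.018 CPM), and GFP replicate 3 was far above for Mx1 (1.439 CPM). In siCONTROL, replicate 4 was far below for Oasl2 (21.15 CPM) and Ube2l6 (15.63 CPM) and far above for Mx1 (0.6895 CPM), and replicate 3 far above for Ifit3b (5.589 CPM). At time 0, Usp18 in replicate 3 (4.699 CPM) and Ifi204 in replicate 4 (2.391 CPM) were far above the others.

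Cxcl10 was also flagged because its response to Atf4 mRNA with Cebpg mRNA differed from that to Atf4 mRNA alone, both against GFP mRNA. This is the direct comparison of the 2 groups already given above and no further test (-1.08 on the log2 scale, edgeR's quasi-likelihood test, adjusted p = 0.0044).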

How the results depend on the processing

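Of the recomputed counts of members, 143 stayed within 1.5 times the count reported and 20 did not. Of the recomputed fold changes, 427 kept their direction and their side of the threshold, 25 no longer passed, 11 newly passed and 4 changed sign. Leaving out each library in turn gave 7 to 32 members in siKlf6, 0 to 1 in siAtf3 (1 without siCONTROL replicate 1), 0 to 1 in siAtf4 (1 without siAtf4 replicate 1) and 0 to 3 in siStat3 against siKlf6. Fitting only the groups compared gave 0 members in siKlf6, 4 in siAtf4 and 2 in siJun, whereas siStat3 gave 21. Of all genes tested, 0.136% passed in siKlf6, 5.53% in siAtf4 and 5.8% in siJun in these fits. Fitting all groups of the table together gave 7 members for siCONTROL against time 0. The share over all genes tested is not given for this count of 7 or for the siStat3 count of 21. The replicate block gave 1 in siAtf3, 2 in Atf4 + Cebpg against Atf4 mRNA and 1 in siStat3 against siKlf6, where DESeq2 also gave 1. It gave 29 in siStat3 and 28 in siKlf6. Set against the mean of the 6 other knockdowns in place of siCONTROL, 2 members passed as lower in siAtf3, 4 in siAtf4, 1 in siJun, 5 in siRest and 2 in siAlyref. That mean includes siStat3 and siKlf6, whose levels were high. Shares over all genes tested are not given for these counts. Most members tested passed as higher in siStat3 and in siKlf6 against their 6 other knockdowns, Rsad2 by 2.51 and 2.10 on the log2 scale. Trim25 in siStat3 and Isg20 and Ifi27 in siKlf6 had fold changes below 0 and did not pass. In that setting the log2 fold change changed sign for Irf9 (-0.0119) and Ifit1 (-0.51) in siAtf4 and for Mx2 (-0.14) and Oasl1 (-0.0444) in siAlyref, with adjusted p of 0.987, 0.549, 0.89 and 0.956. Apart from the settings whose construction differs (fewer samples or another reference), the cause was not tested. The replicate numbers were not taken to pair the libraries, although all correlations of same-numbered libraries were positive. Members under about 5 CPM rest on few counts, and Oas2 and Oas3 could not be tested. No member was called lower in siStat3 or siKlf6 against siCONTROL, or against the other knockdowns, under any setting run, while Trim25 was called lower in siStat3 against siKlf6 under 5 settings.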
